A study of Mus musculus with 8 samples.

Results

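The cyclin-dependent kinase inhibitors described here are the 7 mouse genes Cdkn1a, Cdkn1b, Cdkn1c, Cdkn2a, Cdkn2b, Cdkn2c and Cdkn2d. They were taken as every probe set whose single gene symbol in the array's annotation is one of these names, which gave 9 of the 45037 probe sets tested, and 7 of the 18193 genes with such a probe set. Cdkn1a and Cdkn1b have 2 probe sets each and the other genes 1 each. Expression was measured on 8 Affymetrix arrays of 7438 cells, a single mouse mammary line that expresses a green fluorescent glucocorticoid receptor (GFP-GR) and a cherry fluorescent estrogen receptor (Cherry-ER) from a tetracycline-regulated promoter. The arrays fall into cells given 100 nM dexamethasone and 100 nM estradiol for 2 hours (Dex + E2), 100 nM dexamethasone for 2 hours (Dex), 100 nM estradiol for 2 hours (E2), and untreated cells, with 2 arrays in each group. All groups, Untreated included, had spent 48 hours in charcoal-dextran serum and the last 24 hours without tetracycline, so that both tagged receptors were induced in every sample. The titles number the arrays as replicates but the labels do not tie them to separate cultures, and the p-values below therefore speak to the scatter among these arrays, some or all of which may be technical.

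These proteins restrain the cell cycle by binding cyclin-dependent kinases. The Cip/Kip proteins p21 (Cdkn1a), p27 (Cdkn1b) and p57 (Cdkn1c) bind whole cyclin and kinase complexes, and act most strongly on those that drive entry into S phase. The Ink4 proteins p16 (Cdkn2a), p15 (Cdkn2b), p18 (Cdkn2c) and p19 (Cdkn2d) bind Cdk4 and Cdk6 and keep them from D-type cyclins, and the Cdkn2a locus also encodes Arf, which stabilises p53. In breast epithelium p21 and p27 are known for holding cells in G1, dexamethasone is a synthetic glucocorticoid, and estradiol is known to promote entry into the cycle in human breast cancer lines.

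RefSeq promoter windows, which hold 250 bases before and 50 bases after a transcription start in the mouse assembly GRCm38.p6, were found for 6 of the 7 genes and 9 starts. Those of Cdkn1a, the gene with the largest responses, and of Cdkn1b, a Cip/Kip gene with no called difference, are shown so that both can be set beside their values. Cdkn1a has 2 starts on the plus strand of chromosome 17, 2790 bases apart, at chr17:29090729-29091028 (upstream window) and chr17:29093519-29093818 (downstream window), and Cdkn1b has 1 start on the plus strand of chromosome 6, at chr6:134920151-134920450. Capitals mark the GC box GGGCGG and the p53 decamer, the 10-base repeat unit bound by p53, wherever either was found.
Cdkn1a upstream: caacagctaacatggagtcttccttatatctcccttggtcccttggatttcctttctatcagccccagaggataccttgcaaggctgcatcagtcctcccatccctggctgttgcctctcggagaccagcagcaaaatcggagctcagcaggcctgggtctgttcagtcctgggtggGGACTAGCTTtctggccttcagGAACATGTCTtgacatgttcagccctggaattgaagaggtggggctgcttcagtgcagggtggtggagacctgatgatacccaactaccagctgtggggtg
Cdkn1a downstream: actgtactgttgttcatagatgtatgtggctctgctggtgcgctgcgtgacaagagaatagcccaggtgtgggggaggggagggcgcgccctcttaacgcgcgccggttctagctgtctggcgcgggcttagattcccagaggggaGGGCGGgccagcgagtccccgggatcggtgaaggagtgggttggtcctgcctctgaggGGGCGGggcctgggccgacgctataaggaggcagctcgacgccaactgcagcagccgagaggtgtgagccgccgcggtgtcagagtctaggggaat
Cdkn1b: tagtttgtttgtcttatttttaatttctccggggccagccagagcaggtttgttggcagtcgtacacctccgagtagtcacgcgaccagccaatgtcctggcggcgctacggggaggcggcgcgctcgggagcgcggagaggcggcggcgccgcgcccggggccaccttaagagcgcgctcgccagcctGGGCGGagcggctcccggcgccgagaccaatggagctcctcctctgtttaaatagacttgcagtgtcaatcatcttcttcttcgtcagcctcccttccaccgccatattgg

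Each window was searched on both strands for the glucocorticoid receptor half-site TGTTCT and the full response element, the exact inverted repeat that ends in it with a gap of 3 free bases, for the estrogen receptor half-site GGTCA and the full element, the exact inverted repeat that starts with it with the same gap, and for the GC box and the p53 decamer. The half-sites lie within the full elements, so the searches overlap. Among all 32851 promoter windows, 0.00913% hold the full glucocorticoid element, 19.0% its half-site, 0.0700% the full estrogen element, 40.5% its half-site, 35.7% the GC box and 8.36% the p53 decamer. None of these 4 receptor motifs was found in either Cdkn1a window or in that of Cdkn1b, which says only that these letters are not in these windows. The upstream Cdkn1a window holds p53 decamers at -73 (GGACTAGCTT) and -51 (GAACATGTCT), counted from the start site at +1. The downstream one holds GC boxes at -104 and -46, and the Cdkn1b window holds 1 at -61. Of the 9 windows of the family, 7 hold a GC box, 2 a p53 decamer, 1 the glucocorticoid half-site (Cdkn2c) and 2 the estrogen half-site (Cdkn2a and Cdkn2c), and 0 hold either full element. The files do not say which start a probe set reads.

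Before the values of the family, some facts of the arrays bear on them. Values are log2 signals after robust multi-array averaging (RMA), which sets arrays to a common scale. Replicate arrays correlated at 0.996 to 0.998 over all probe sets. Dex + E2 replicate 2 stood furthest from the others, with a mean correlation of 0.9951 against 0.996 to 0.997 for the other 7, and its pair with replicate 1 was the least alike (1249 probe sets more than 0.5 log2 units apart, where the pairs of the other groups had 92 to 305). A GR-ChIP experiment is named in the description field of 2 arrays, Dex + E2 replicate 1 and E2 replicate 2, whose other labels make them expression arrays of those groups. Per1, a circadian clock gene and glucocorticoid target, was higher than in Untreated by 2.41 ± 0.13 log2 units (SE from limma) in Dex + E2, by 2.66 ± 0.13 in Dex and by 1.97 ± 0.13 in E2. It was 1 of 4 glucocorticoid targets checked, with Tsc22d3, Fkbp5 and Sgk1. Of their 9 probe sets, limma called 6 higher in Dex + E2, 6 in Dex and 1, that of Per1, in E2. Over all probe sets 0.471%, 0.575% and 0.0333% were called higher. The median difference of the 9 was 1.10, 1.31 and 0.16 log2 units, so the E2 rise of Per1 does not stand for these targets. Of the cell type markers, all 4 mesenchymal ones (Vim, Fn1, Cdh2 and Col1a1) lay above the median level of all probe sets. So did 2 of 3 markers of basal epithelium (Krt5 and Krt14, but not Trp63) and 2 of 5 luminal ones. The immune cell marker Cd3e (percentile 60.9) did too, 1 of 3 such markers, so lying above the median does not by itself name a cell type. Cdh1 (percentile 4.11 of mean level), Krt18 (26.1) and the milk protein genes Csn2 (19.9) and Wap (33.1) were dim. No marker listed was called in limma in Dex + E2, Dex or E2 against Untreated, and the other comparisons were not examined for the markers.

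The family divided into brightly and dimly measured members. The mean level over the 8 arrays lay at percentile 97.4 and 95.04 of all probe sets for the pair of Cdkn1a probe sets, 92.9 for the brighter Cdkn1b probe set, 94.2 for Cdkn2c and 88.5 for Cdkn2d. It lay at 54.6 for the dimmer Cdkn1b probe set, 43.7 for Cdkn2b, 37.5 for Cdkn1c and 22.1 for Cdkn2a. Since probe sets differ in how well they bind, these places do not say which transcript is more abundant. RMA can compress the changes of dim probe sets, so little can be read from Cdkn1c, Cdkn2a and Cdkn2b. In RNA of whole cultures, a change in every cell and a change in a fraction of the cells cannot be told apart.

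**Figure D1:**
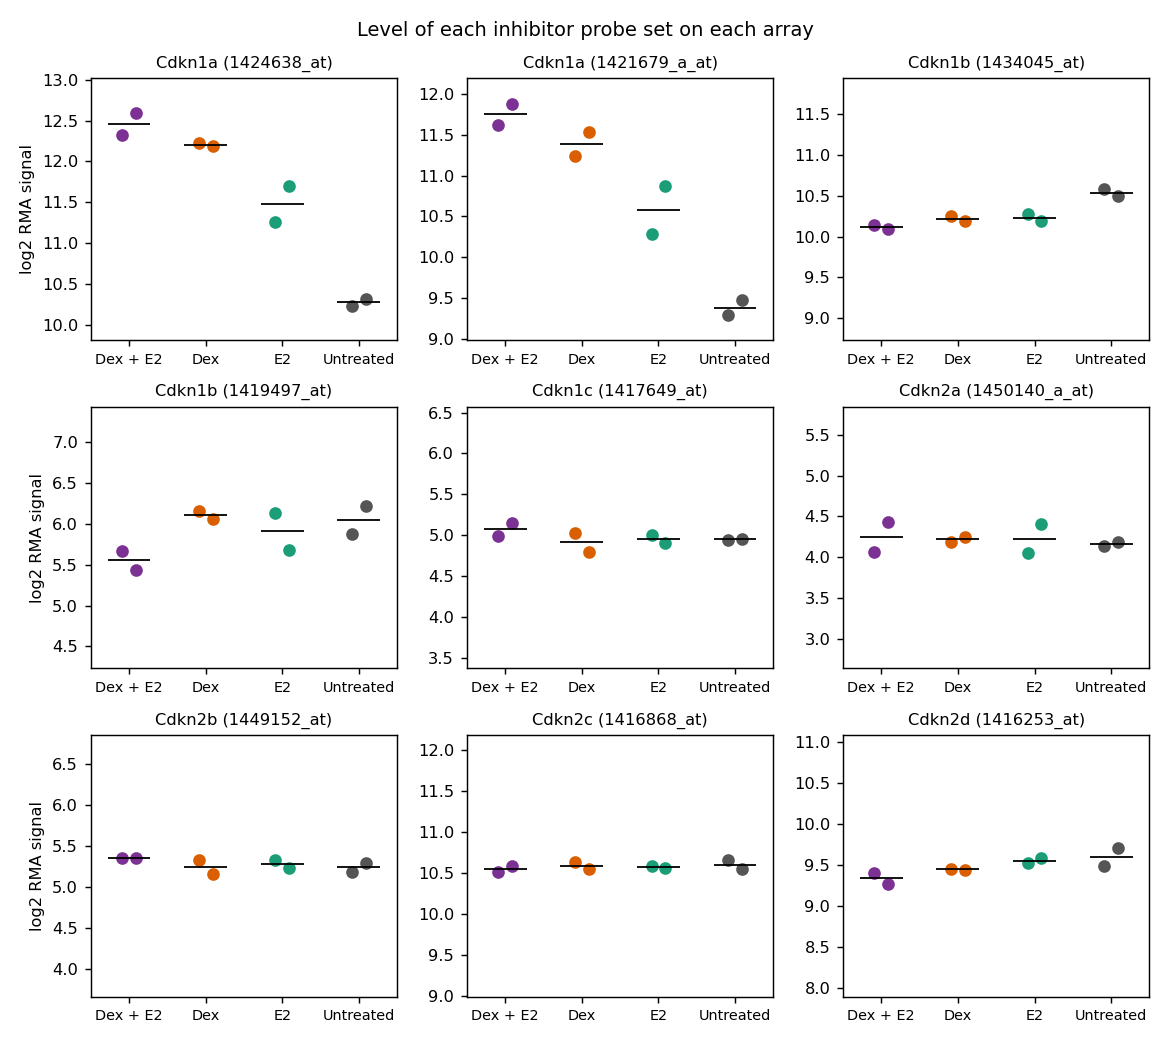
Log2 RMA signal (y axis, spanning the same number of log2 units in every panel) of each inhibitor probe set on each array; points are arrays, bars are means of the 2 arrays, and groups run from Dex + E2 to Untreated. Both Cdkn1a probe sets were highest with Dex + E2 and lowest in Untreated, while the points of the other genes lay close together.

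Cdkn1a, which encodes p21, was the member that rose, and both of its probe sets showed it. The brighter one (1424638_at) read 12.32 and 12.60 in Dex + E2, 12.22 and 12.19 in Dex, 11.26 and 11.70 in E2, and 10.23 and 10.32 in Untreated. The other (1421679_a_at) read 11.62 and 11.88 in Dex + E2, 11.24 and 11.53 in Dex, 10.29 and 10.87 in E2, and 9.30 and 9.47 in Untreated. On both probe sets the arrays of the 4 groups did not overlap, and the groups stood in the order Dex + E2, Dex, E2, Untreated. For this and for any other pattern of arrays across several groups, the share of all probe sets that show it was not counted. The E2 arrays were the furthest apart, with a standard deviation of 0.31 and 0.41, against 0.19 and 0.18 in Dex + E2, 0.025 and 0.21 in Dex, and 0.062 and 0.12 in Untreated.

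With both hormones Cdkn1a was 2.18 ± 0.14 log2 units above Untreated on the brighter probe set, which is 4.54-fold (95% interval 3.66 to 5.65; limma, Benjamini-Hochberg adjusted p = 6.64e-05). The other probe set was 2.37 ± 0.18 higher, or 5.16-fold (limma, adjusted p = 0.00013). Ranked by the size of the rise among all 45037 probe sets, they stood at 17 and 6. These were the 2 of 9 probe sets of the family called in this comparison, both higher, where 0.844% of all probe sets were called and 0.471% were called higher. The rise was present with either Dex + E2 array left out: it was 2.32 without replicate 1 and 2.05 without replicate 2 on the brighter probe set (limma, adjusted p = 0.0002 and 0.000289), and no lower than 2.24 on the other.

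Dex alone raised Cdkn1a by 1.93 ± 0.14 log2 units on the brighter probe set, a 3.80-fold change (95% interval 3.06 to 4.73; limma, Benjamini-Hochberg adjusted p = 9.89e-05), and by 2.00 ± 0.18 on the other (limma, adjusted p = 0.000305). The 2 Cdkn1a probe sets were again the only ones of the 9 called, both higher, against 0.924% of all probe sets called and 0.575% called higher. Both stayed past the threshold without each of the 8 arrays in turn, with limma adjusted p up to 0.0045 and 0.0114.

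E2 alone raised Cdkn1a by 1.21 ± 0.14 log2 units on the brighter probe set, 2.31-fold (95% interval 1.86 to 2.87; limma, Benjamini-Hochberg adjusted p = 0.019), and 16 of all probe sets (0.0355%) were called in this comparison, 15 of them higher (0.0333%). On the other probe set the difference was nearly the same, 1.20 ± 0.18, but did not pass (limma, adjusted p = 0.0719). Without E2 replicate 2, the array with the ChIP description and the higher Cdkn1a value, the difference was 0.99 and did not pass on the brighter probe set (limma, adjusted p = 0.148), and it was 0.90 on the other (adjusted p = 0.482). Without E2 replicate 1 it was 1.43 and 1.49, and both probe sets passed (limma, adjusted p = 0.00844 and 0.0129). The call on the brighter probe set was also lost without either Untreated array or either Dex array.

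**Figure D2:**
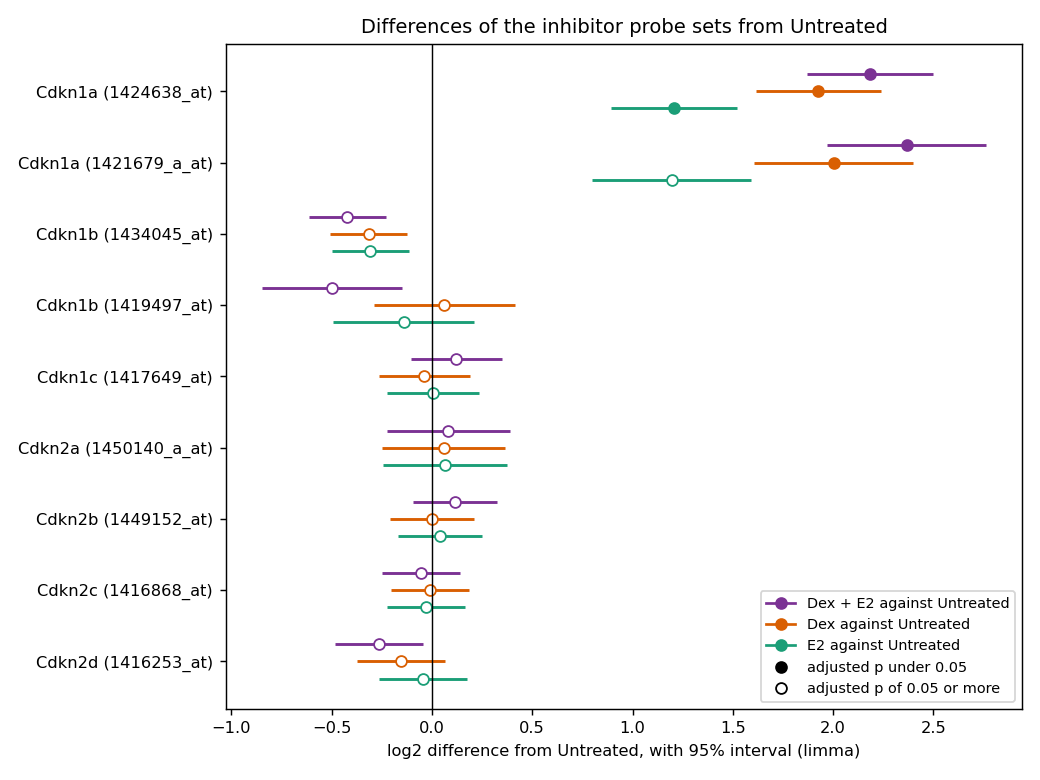
Log2 difference of each inhibitor probe set from Untreated (x axis, log2 units) with its 95% interval from limma, for Dex + E2, Dex and E2 from top to bottom within each probe set; filled points have an adjusted p under 0.05. The intervals of both Cdkn1a probe sets lie well above 0 in all 3 comparisons, and those of the Cdkn2 genes include or lie near 0.

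The comparisons among treated groups ask how each hormone acts on top of the other. Added to E2, Dex gave a further rise of Cdkn1a: Dex + E2 was 0.98 ± 0.14 log2 units above E2 on the brighter probe set (1.97-fold; limma, Benjamini-Hochberg adjusted p = 0.0219) and 1.17 ± 0.18 on the other (limma, adjusted p = 0.028). These 2 of 9 probe sets were called, both higher, against 0.335% of all called and 0.204% called higher. Without Dex + E2 replicate 2 the differences were 0.84 and 1.04 and did not pass (limma, adjusted p = 0.108 and 0.148), and without replicate 1 they were 1.12 and 1.30 and passed (0.00923 and 0.0142). Both also missed the threshold without E2 replicate 1, at 0.76 and 0.88 (limma, adjusted p = 0.129 and 0.133), and without either Dex or either Untreated array.

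Added to Dex, E2 gave a difference in Cdkn1a that did not pass. Dex + E2 was 0.26 ± 0.14 log2 units above Dex on the brighter probe set and 0.36 ± 0.18 on the other (limma, Benjamini-Hochberg adjusted p = 0.996 for both), although the arrays did not overlap on either. Across all probe sets 31.3% did not overlap in this comparison, so the gap alone is common. The 95% intervals, -0.056 to 0.57 and -0.032 to 0.76, leave room for no difference and for one of more than 0.5 log2 units. Here limma called 3 of 45037 probe sets (0.00666%, with 2098 at an unadjusted p under 0.05), none of the family: named after their values were seen, they were the pair for the zinc finger gene Zfp52 and the one for Tmem86a, an enzyme of ether lipid turnover.

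Dex stood above E2 by 0.72 ± 0.14 log2 units on the brighter Cdkn1a probe set and by 0.81 ± 0.18 on the other, without passing (limma, Benjamini-Hochberg adjusted p = 0.0572 and 0.107), where 0.675% of all probe sets were called. The first lay close to the threshold and passed under 9 of the 16 alternatives run, and the other under 3 of 14. Without each array in turn, the differences ran from 0.50 to 0.94 and from 0.52 to 1.10. In the order of levels, the steps from Dex + E2 to Dex and from Dex to E2 thus did not pass on either probe set, and that from E2 to Untreated passed on 1 of them. These calls depend on the model. With replicate numbers fitted as a block, Dex against E2 passed on both probe sets and E2 against Untreated on the dimmer one too, although the numbers were not taken as pairing.

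On the log2 scale, the single-hormone differences of Cdkn1a added up to more than was measured with both. Adding log2 differences multiplies folds, which were 3.80 with Dex, 2.31 with E2 and 4.54 with both on the brighter probe set. Whether the unlogged rises add up was not tested. Their sum was 3.13 log2 units on the brighter probe set, against 2.18 with Dex + E2, and 3.20 against 2.37 on the other. The Dex by E2 interaction, which is the Dex difference with E2 minus the Dex difference without it, was -0.95 ± 0.20 and -0.83 ± 0.25. Neither passed over all probe sets (limma, Benjamini-Hochberg adjusted p = 0.669 and 0.881; unadjusted 0.000719 and 0.00777), and the value was negative under all 15 and 13 alternatives run, from -1.17 to -0.73 and from -1.12 to -0.54. In this test 1 of 45037 probe sets was called (0.00222%), which was that of Per1.

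**Figure D3:**
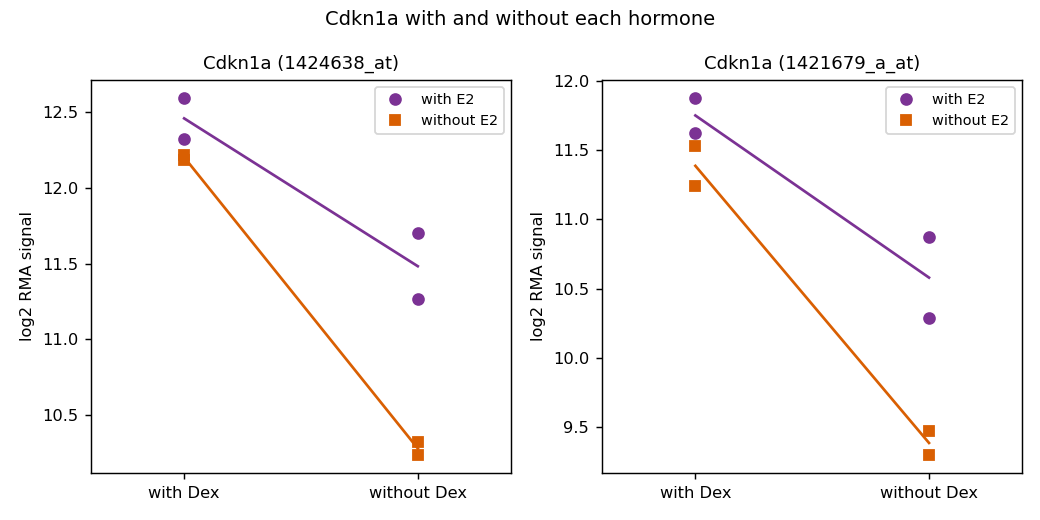
Log2 RMA signal (y axis) of both Cdkn1a probe sets with and without Dex (x axis), in cells with E2 (circles) and without E2 (squares); points are arrays and lines join the means of 2 arrays. The line without E2 is the steeper on both probe sets, with Dex differences of 1.93 and 2.00 log2 units, against 0.98 and 1.17 with E2.

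The 6 genes whose signals over the 8 arrays were most like those of the brighter Cdkn1a probe set were sought among 231 probe sets of other genes with at least 0.5 times its range. As a description, Pearson's r over the 8 arrays, which fall into 4 treatment groups, was 0.994 for Nfkbia, the NF-kappaB inhibitor, 0.991 for Pim3, a serine/threonine kinase, 0.990 for Plin4, a lipid droplet protein, 0.986 for Zfp36, an mRNA decay factor, and 0.976 for both St6galnac4, a sialyltransferase, and Errfi1, an inhibitor of the EGF receptor. Nfkbia followed Cdkn1a most closely in size as well, with differences from Untreated of 2.22 log2 units in Dex + E2, 2.08 in Dex and 1.15 in E2. Pim3 had smaller ones, 1.25, 0.98 and 0.65 in the same order. All of these genes were called in Dex + E2 and in Dex, and Plin4 and Errfi1 were also called in E2 (limma, Benjamini-Hochberg adjusted p = 0.00943 and 0.0175).

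**Figure D4:**
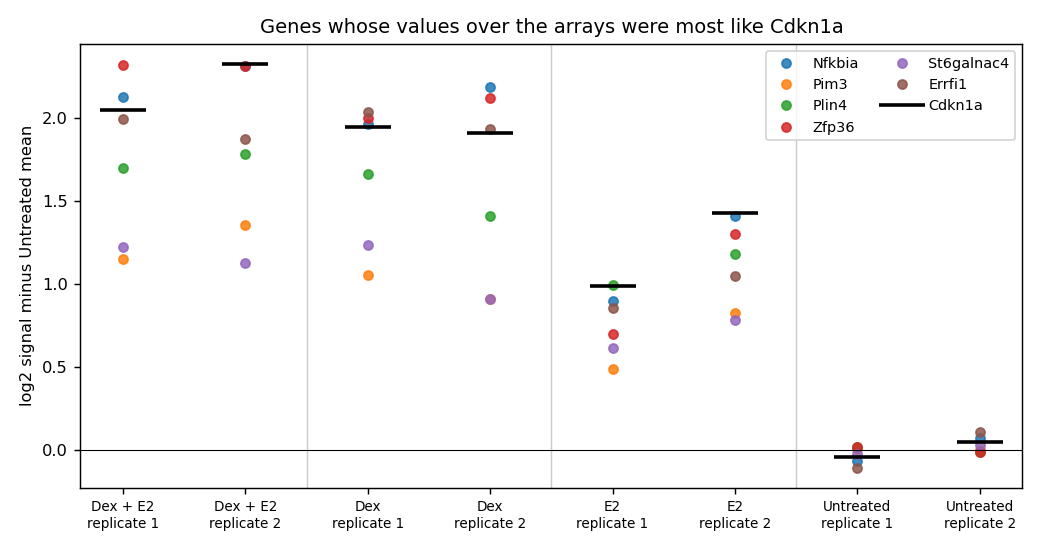
Log2 signal minus the Untreated mean (y axis) on each of the 8 arrays (x axis) for the brighter Cdkn1a probe set (black bars) and the 6 genes most like it (points). On E2 replicate 2 every gene shown lay above its value on E2 replicate 1, as Cdkn1a did. The genes were chosen for their likeness over these same arrays, so a shared gap is favoured by the choice.

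Cdkn1b, which encodes p27, lay lower in each treated group on its brighter probe set (1434045_at), by amounts that did not pass. It read 10.14 and 10.09 in Dex + E2, 10.25 and 10.19 in Dex, 10.27 and 10.19 in E2, and 10.58 and 10.49 in Untreated. All 6 treated arrays were below both Untreated arrays, while the Dex and E2 arrays overlapped each other. The difference from Untreated was -0.42 ± 0.086 log2 units with Dex + E2, or 1.34-fold lower (limma, Benjamini-Hochberg adjusted p = 0.0608), -0.32 ± 0.086 with Dex (0.24) and -0.31 ± 0.086 with E2 (0.653). The Dex + E2 value passed in 3 of 16 alternatives, with a trended and robust prior (limma, adjusted p = 0.0129), with bright probe sets alone (0.0306) and with 1 probe set per gene (0.0315), and missed it without each array in turn, from 0.0504 to 0.38.

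The dimmer Cdkn1b probe set (1419497_at) did not follow the brighter one in Dex. It read 5.66 and 5.44 in Dex + E2, 6.16 and 6.06 in Dex, 6.13 and 5.68 in E2, and 5.88 and 6.22 in Untreated. Both Dex + E2 arrays lay below the other 6, but the Dex, E2 and Untreated arrays overlapped. Its differences from Untreated were -0.50 ± 0.16 with Dex + E2, 0.06 ± 0.16 with Dex and -0.14 ± 0.16 with E2, and none passed (limma, Benjamini-Hochberg adjusted p = 0.357, 1 and 0.972). Dex + E2 stood at -0.56 ± 0.16 from Dex (limma, adjusted p = 0.935), against -0.11 ± 0.086 on the brighter probe set. With the mean of both probe sets, Cdkn1b differed from Untreated by -0.46 in Dex + E2 (limma, adjusted p = 0.0687).

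Cdkn2d, which encodes p19, was brightly measured and had no called difference. It read 9.40 and 9.27 in Dex + E2, 9.45 and 9.44 in Dex, 9.52 and 9.59 in E2, and 9.49 and 9.71 in Untreated. The Dex + E2 and the Dex arrays lay below both Untreated arrays, and both E2 arrays lay between the Untreated ones. The differences were -0.26 ± 0.099 log2 units with Dex + E2, -0.15 ± 0.099 with Dex and -0.04 ± 0.099 with E2, and none passed (limma, Benjamini-Hochberg adjusted p = 0.49, 1 and 0.99).

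Cdkn2c, which encodes p18, was bright and nearly level. It read 10.51 and 10.58 in Dex + E2, 10.63 and 10.55 in Dex, 10.59 and 10.56 in E2, and 10.66 and 10.55 in Untreated, and the arrays of all groups overlapped. Its difference from Untreated was -0.05 ± 0.087 with Dex + E2, and the 95% interval, -0.25 to 0.14 log2 units, leaves out a change as large as that of Cdkn1a. With Dex and E2 it was -0.01 and -0.03.

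The dim members Cdkn1c (p57), Cdkn2a (p16 and Arf) and Cdkn2b (p15) showed no called difference in any comparison. Cdkn1c read 4.99 and 5.14 in Dex + E2, 5.03 and 4.80 in Dex, 5.00 and 4.90 in E2, and 4.94 and 4.95 in Untreated. Cdkn2a read 4.06 and 4.43 in Dex + E2, 4.19 and 4.25 in Dex, 4.05 and 4.40 in E2, and 4.14 and 4.19 in Untreated. Cdkn2b, its neighbour on chromosome 4, read 5.36 and 5.35 in Dex + E2, 5.32 and 5.15 in Dex, 5.33 and 5.23 in E2, and 5.18 and 5.29 in Untreated. The gap between the 2 arrays of a group, up to 0.37 log2 units for Cdkn2a and 0.23 for Cdkn1c, was larger than their differences from Untreated, which ran from -0.04 to 0.12. One probe set stands for both products of the Cdkn2a locus, and the array cannot tell p16 from Arf in these values.

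Counted together, the family gave 2, 2 and 1 called probe sets of 9 in Dex + E2, Dex and E2 against Untreated, all of them Cdkn1a and all higher. At an unadjusted p under 0.05 there were 5, 3 and 3 of 9, where 8.16%, 5.69% and 5.42% of all probe sets were, and these were the Cdkn1a pair and the brighter Cdkn1b probe set in each, with the dimmer Cdkn1b and the Cdkn2d probe sets besides in Dex + E2. The median difference of the 9 was 0.08, 0.0012 and 0.0044 log2 units, beside 0.0035, 0.0014 and -0.01 over all probe sets. The arrays of both groups did not overlap for 7, 5 and 3 of the 9, where 33%, 34.7% and 34.9% of all probe sets did not. The 3 comparisons share the Untreated arrays.

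The listed cyclins and cyclin-dependent kinases, not all of which are bound by the inhibitors, did not pass in any comparison. Of 37 probe sets for 14 of 15 listed genes, such as Cdk2, Cdk4 and Ccnd1, 0 were called in limma in Dex + E2, Dex or E2 against Untreated, with 1, 1 and 2 at an unadjusted p under 0.05, and their median differences were -0.04, -0.02 and -0.0030, beside 0.0035, 0.0014 and -0.01 over all probe sets. The trio of Ccnd1 probe sets, for cyclin D1, had differences of -0.21, -0.13 and -0.07 in Dex + E2. Genes for the turnover of the inhibitors, such as Skp2, which marks p27 for destruction, gave 0 of 29 probe sets called in each of these comparisons, with 5, 3 and 2 unadjusted and medians of -0.07, -0.06 and 0.0019. Of 29 probe sets for Rb and E2f genes 1 fell, that of E2f2, an activating E2F factor, at -0.70 ± 0.085 in Dex + E2 and -0.75 ± 0.085 in Dex (limma, Benjamini-Hochberg adjusted p = 0.00248 and 0.00143), and 0 were called in E2. Of these 29, 7, 4 and 2 had an unadjusted p under 0.05, and the medians were -0.08, -0.06 and -0.02. For the lists of this paragraph, the shares over all probe sets were 0.844%, 0.924% and 0.0355% called in Dex + E2, Dex and E2. At an unadjusted p under 0.05 these shares were 8.16%, 5.69% and 5.42%. A second E2f2 probe set, at -0.36 and -0.39, did not pass (limma, adjusted p = 0.265 and 0.223). It was the brighter of the pair, at percentile 71.8 of mean level, while the called one lay at 47.5, below the median. The called one read 5.24 and 5.21 in Dex + E2, 5.22 and 5.13 in Dex, 5.65 and 5.62 in E2, and 5.97 and 5.88 in Untreated.

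Cdkn1a is a textbook p53 target, and other listed p53 targets were set beside it. Of 39 probe sets for Trp53 and 17 other listed genes that were measured, 1 rose and 0 fell in Dex + E2, 2 rose and 1 fell in Dex, and 0 were called in E2. Over all probe sets, 0.844%, 0.924% and 0.0355% were called in these comparisons. At an unadjusted p under 0.05 there were 6, 7 and 5 of 39, beside the shares of 8.16%, 5.69% and 5.42% over all probe sets, and the medians were -0.02, 0.05 and 0.05. Those that rose were all for Sesn1, a stress-responsive regulator of mTORC1, at 0.57 ± 0.092 in Dex + E2 and 0.97 ± 0.092 in Dex (limma, Benjamini-Hochberg adjusted p = 0.0149 and 0.000431), and the one that fell was for Bbc3, a pro-apoptotic BCL2 relative, at -0.54 ± 0.10 in Dex (0.0363). Sesn1 lost its Dex + E2 call without Dex + E2 replicate 2 or either Untreated array, its other called probe set lost the Dex call without either Dex or either Untreated array, and Bbc3 its Dex call without 6 of the 8 arrays. The trio of Mdm2 probe sets, for the ligase that degrades p53, stood between -0.17 and 0.09 in Dex + E2.

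Among regulators of Cip/Kip transcription, of 33 probe sets for 13 genes, 4 rose and 2 fell in Dex + E2, 4 rose and 0 fell in Dex, and 0 were called in E2, where 0.844%, 0.924% and 0.0355% of all probe sets were called. At an unadjusted p under 0.05 there were 16, 11 and 9 of 33, beside 8.16%, 5.69% and 5.42% of all probe sets. The medians were -0.01, -0.03 and -0.03. All that rose were for Foxo3 and Cebpb, with a pair of probe sets each, and these calls held without each array in turn. Foxo3, a forkhead factor known to activate Cdkn1a and Cdkn1b, rose on the probe set shown by 0.89 ± 0.087 in Dex + E2 and 0.91 ± 0.087 in Dex (limma, Benjamini-Hochberg adjusted p = 0.000696 and 0.000496), and Cebpb, a bZIP factor of the C/EBP family, by 1.17 ± 0.12 and 1.18 ± 0.12 (0.00108 and 0.000859). Foxo3 read 8.43 and 8.40 in Dex + E2, 8.49 and 8.38 in Dex, 7.81 and 7.91 in E2, and 7.55 and 7.51 in Untreated, without overlap of either Dex group with E2 or Untreated. In Dex + E2 Klf6, a Kruppel-like factor, fell by 0.94 ± 0.18 on 1 of 5 probe sets, and, named after its value was seen, Sp1, a GC box binding factor, fell by 0.56 ± 0.11 (limma, adjusted p = 0.0377 and 0.044). Both lost the call without Dex + E2 replicate 2, without either Dex or either Untreated array, and Sp1 also without either E2 array.

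Regulators of the Ink4 and Arf locus, among them the Polycomb genes Bmi1 and Ezh2, gave 1 called probe set of 38, that of Id1, an inhibitor of bHLH factors. Id1 was higher by 0.79 ± 0.15 in Dex + E2 and 0.99 ± 0.15 in Dex (limma, Benjamini-Hochberg adjusted p = 0.0389 and 0.0087), and 0 of 38 were called in E2. Of the 38, 7, 8 and 3 had an unadjusted p under 0.05, with list medians of 0.0042, -0.0072 and 0.07. Beside these stand 8.16%, 5.69% and 5.42% of all probe sets at an unadjusted p under 0.05, and 0.844%, 0.924% and 0.0355% called. The Dex + E2 call was lost without 5 of the 8 arrays, and the Dex call without either Dex array or Untreated replicate 1. The remaining Cdkn symbols on the array, the phosphatase gene Cdkn3 and the genes Cdkn2aip and Cdkn2aipnl, gave 0 of 5 probe sets called in Dex + E2, Dex or E2 (1, 1 and 2 unadjusted in limma).

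**Figure D5:**
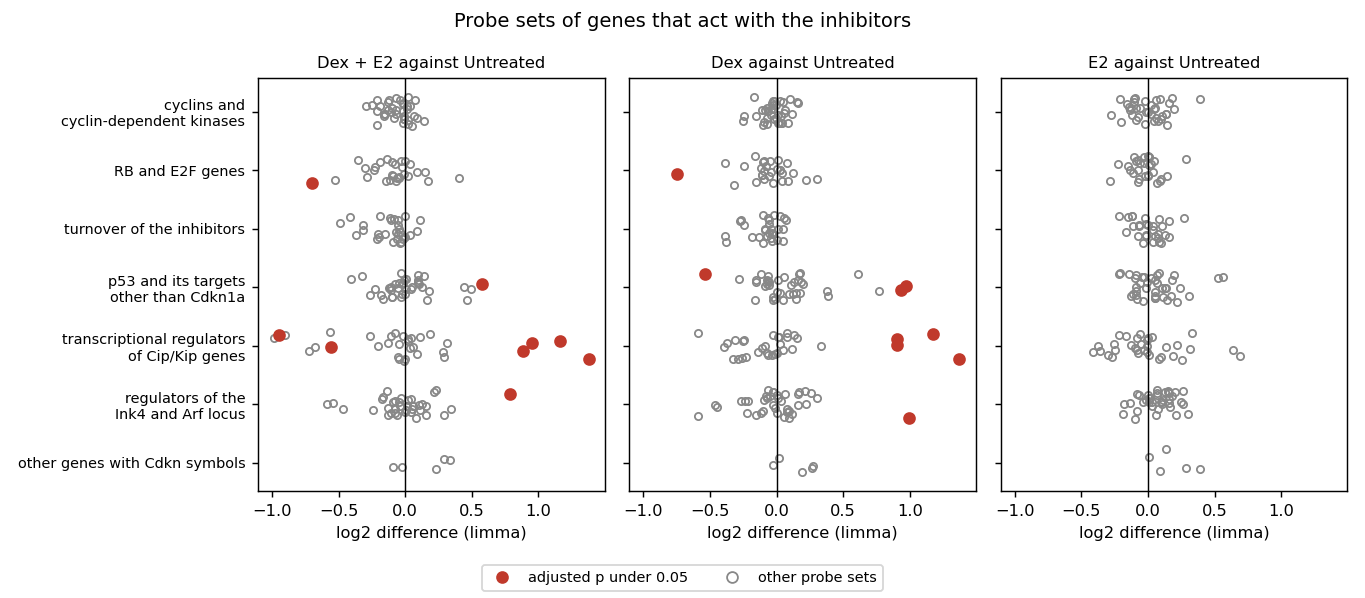
Log2 difference from Untreated (x axis, log2 units) of every probe set on each list of genes that act with the inhibitors (rows), for Dex + E2, Dex and E2 (panels from left to right); red points have a limma adjusted p under 0.05, and points are spread vertically only to show them apart. The red points in the Dex + E2 and Dex panels are 9 and 9 probe sets, and the E2 panel has 0.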

How the data were processed

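RNA of 7438 cells was measured on 8 Affymetrix mouse arrays. The deposited values are log2 signals per probe set, made by the authors with RMA in Affymetrix Expression Console, per the submitters' processing notes, whose versions are not given in the sources used here. The values were used as deposited. The 64 array control probe sets were left out of 45101, and all 45037 others were tested without a filter. The platform annotation gives 1 symbol to 34945 probe sets, several to 932 and does not list 9160, and 34741 of the first were matched to RefSeq by Entrez number.

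One limma model (version 3.58.1, in R 4.3.3) with 4 group means was fitted to the 8 arrays together (4 residual degrees of freedom). It gave 6 differences between groups and the Dex by E2 interaction. P-values were Benjamini-Hochberg adjusted over all probe sets, and calls are adjusted p under 0.05. The fit was checked on simulated data. The precision is limited by 2 arrays a group.

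The inhibitors and gene lists were chosen with earlier results of these data known. Every inhibitor probe set is given. From each list, up to 3 genes were named per comparison, those called with the largest differences. The genes most like Cdkn1a were the 6 with the highest Pearson r. Replicate numbers are shared between groups. Deviations from the group means correlated at -0.25 to -0.11 in the pairs of groups with Dex + E2, and at 0.16 to 0.31 in the other pairs. Since the signs differed, the numbers were not taken as pairing. Alternatives were a replicate block, a trended and robust prior, a filter on level, 1 value per gene, a median shift, repeated quantile normalization, a fit of the groups compared alone, and leaving out each array.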

Additional observations from a re-analysis of the deposited data

Results flagged for a closer look

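Per1 was the 1 probe set whose Dex difference changed with E2 in the test of that change itself. The Dex difference was 0.44 ± 0.13 log2 units in cells with E2 and 2.66 ± 0.13 in cells without it, and their difference was -2.21 ± 0.18 (SE; limma, Benjamini-Hochberg adjusted p = 0.00949). Per1 read 9.16 and 8.84 in Dex + E2, 9.32 and 9.17 in Dex, 8.62 and 8.50 in E2, and 6.72 and 6.45 in Untreated. The call was lost without either Dex array, either E2 array or Untreated replicate 2, with limma adjusted p from 0.0645 to 0.17. For Cdkn1a the same difference was negative on both probe sets but did not pass.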

How the results depend on the processing

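Of 915 values of the inhibitor probe sets under alternatives, 877 kept their side of the threshold, 20 lost a call, 18 gained one and 0 called values reversed, while 52 uncalled values changed sign. The Cdkn1a rises in Dex + E2 and Dex passed in all alternatives run. Over all probe sets in limma, the counts called in Dex + E2, Dex and E2 against Untreated, Dex + E2 against Dex, Dex + E2 against E2, Dex against E2 and the interaction were 380, 416, 16, 3, 151, 304 and 1. With the replicate block they were 338, 372, 15, 2, 107, 255 and 1, and the block brought the Cdkn1a differences of E2 from Untreated on the dimmer probe set and of Dex from E2 on both past the threshold (adjusted p = 0.022, 0.0184 and 0.045). Leaving out each array gave 169 to 1436 for Dex + E2 against Untreated, 170 to 498 for Dex, 3 to 37 for E2, 0 to 168 for Dex + E2 against Dex, 30 to 1974 for Dex + E2 against E2, 72 to 404 for Dex against E2, and 0 to 29 for the interaction. The highest count came without Dex + E2 replicate 1 in all of these except E2 against Untreated, where it came without E2 replicate 1. Averaging the probe sets of each gene, which tests fewer values, gave 237 for Dex + E2 against Untreated, 269 for Dex, 100 for Dex + E2 against E2 and 185 for Dex against E2, and the brightest probe set per gene 267 for Dex. The groups compared alone, a fit of fewer arrays, gave 222 for Dex + E2 against Untreated, 0 for Dex + E2 against Dex and 16 for Dex + E2 against E2. The trended and robust prior gave 46 for E2 against Untreated, 5 for Dex + E2 against Dex and 6 for the interaction, repeated quantile normalization 25 for E2, and probe sets above the median level 0 for Dex + E2 against Dex. The cause of the last 5 shifts was not tested. A probe set below the median level has little signal over background, which limits Cdkn1c, Cdkn2a and Cdkn2b.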

Other observations

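Outside the inhibitors, 1 of the 16 probe sets called in E2 against Untreated was lower, and it was chosen here after its value was seen. It was that of Ptgs2, the inducible prostaglandin synthase, at -0.90 ± 0.096 log2 units (SE; limma, Benjamini-Hochberg adjusted p = 0.0108). The Ptgs2 call held under 10 of the 14 alternatives run, and without each array in turn the difference ran from -1.01 to -0.79. In Dex + E2 against Dex, where no inhibitor was called, Tmem86a was 1.72 ± 0.18 higher (limma, adjusted p = 0.034), and the Zfp52 pair 1.21 ± 0.13 and 1.08 ± 0.099 higher (limma, adjusted p = 0.034 and 0.0262). These calls depend on the model. They held under 8 of 15 alternatives for Tmem86a and under 8 of 16 and 7 of 13 for Zfp52. With the groups compared alone, 0 probe sets were called. Without each array in turn, the differences ran from 1.42 to 2.03, from 1.19 to 1.23 and from 1.01 to 1.15.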
